A study of Mus musculus with 6 samples.

Results

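Forkhead genes encode the FOX transcription factors, which share a winged helix DNA-binding domain and are grouped by lettered subfamilies. The table held 30 of them among 14915 gene symbols, chosen by symbol (FOX, a subfamily letter from A to S and a number). RNA-seq measured them in cells labelled as the mouse melanoma line B16F10, in 3 WT libraries and 3 libraries of ZBTB5-S127A cells, in which a phosphorylatable serine of the zinc finger factor ZBTB5 is replaced by alanine. All 6 libraries came from cells given TNFα, an inflammatory cytokine, while amino acids were limited. No untreated library was analysed here, so a difference in the response to TNFα cannot be told apart from one that is there without it. The design text asks how blocking this phosphorylation affects transcription when inflammation activates mTORC1, the kinase complex that ties growth to amino acid supply. Whether the S127A line is 1 clone or a pool is not given in the sources used here.

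Forkhead factors divide into those that set cell identity and those that most cells use. FOXA, FOXC, FOXD and FOXF members act in development, FOXA proteins as pioneer factors that open closed chromatin. FOXO proteins drive stress, arrest and catabolic genes and are kept out of the nucleus by AKT, FOXM1 drives genes of mitosis, and FOXK proteins repress autophagy genes, induce glycolytic ones and respond to mTORC1.

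The S127A libraries stood apart from their cell line label before any forkhead gene was read. The 17 listed melanocyte markers summed to 19900 to 20090 TPM in the WT libraries and to 119.8 to 127.9 TPM in the S127A libraries. Of the 15 tested 15 were lower, beside 49.8% of all genes tested. Tested markers under 1 TPM in S127A, SOX10 and OCA2 among them, reached the mean needed for a test through the WT libraries. Their direction was therefore fixed. TPM is a transcript abundance scaled to gene length and library total. SOX10, which defines the neural crest lineage, fell from 341 ± 4.64 to 0.603 ± 0.116 TPM (SD, n = 3 per group here and below). OCA2 was listed at 0 in 2 of 3 S127A libraries, and KIT and EDNRB were under 1 TPM in both groups. The 10 fibroblast markers summed to 16.2 to 17.2 TPM in WT and 300.7 to 313.1 TPM in S127A, with DCN listed at 0 in WT and LUM and THY1 at 0 in S127A. COL1A2 made up 275 ± 6.56 TPM of the S127A sum, and POSTN, the highest of these markers in WT, fell from 7.79 ± 0.912 to 0.0667 ± 0.0231 TPM. The 9 listed immune markers summed to 8.32 to 9.46 and 49.8 to 53.9 TPM, of which CD14 made up most in S127A, and PTPRC stayed at 0.1 TPM or less. The 11 listed endothelial or epithelial markers summed to 0.23 to 0.47 and 63.8 to 64.4 TPM, nearly all KRT18, with CLDN4 at 0 in every library. Whether the S127A libraries come from the same line as the WT libraries cannot be told from these data. These shifts and the S127A label fall on the same 3 libraries, so their parts in any forkhead difference cannot be told apart. In bulk RNA, fewer cells of a type and less RNA per cell cannot be told apart either. The labels do not say whether replicates are separate cultures. The spread behind each p-value may therefore be technical only.

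On the deposited TPM scale the forkhead genes kept nearly the same summed level while the genes that made up that sum changed. Their TPM summed to 474, 475 and 477 in the WT libraries and to 468, 489 and 483 in the S127A libraries. The sum depended on the scaling: with the libraries brought to a common scale by TMM factors it was 460.05 TPM in WT and 496 TPM in S127A. In WT the highest 3 were FOXK2, FOXR2 and FOXM1, which held 60.6% ± 0.388 of the sum. In S127A they were FOXM1, FOXF1 and FOXJ3, with 46.7% ± 0.697. The FOXK subfamily fell from 27.0% ± 0.842 to 15.4% ± 0.33 of the sum, FOXO from 16.1% ± 0.401 to 8.05% ± 0.243, and FOXR from 19.5% ± 0.324 to 0.0594% ± 0.0238. FOXF went from 0.0274% ± 0.0255 to 17.8% ± 0.974. The shares are descriptions and were not tested.

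**Figure D1:**
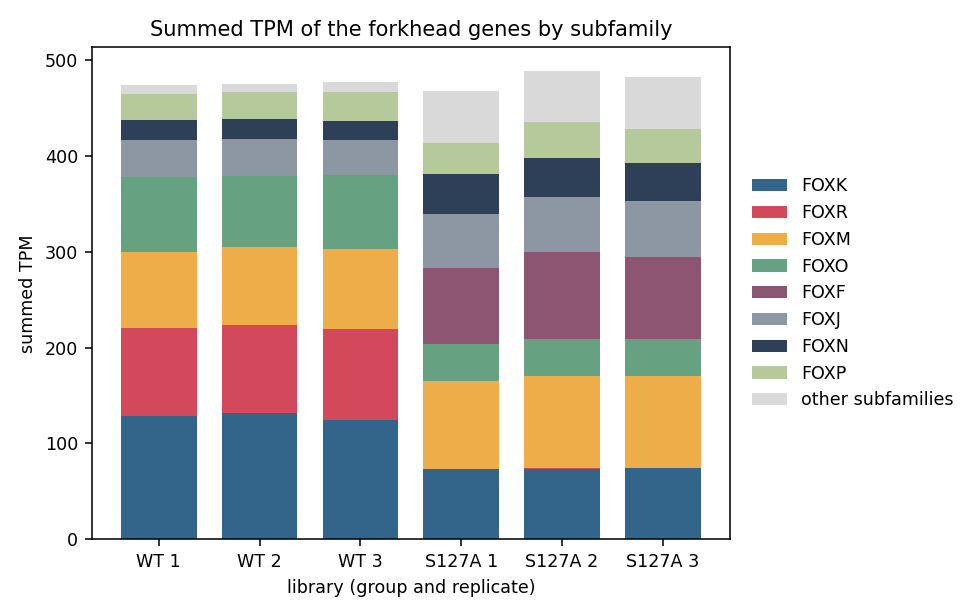
Summed TPM of the 30 forkhead genes in each library (1 bar per library), with each subfamily as a coloured segment, or pooled as other subfamilies. The 6 bars reach similar heights, from 468 to 489 TPM, while the FOXR segment is broad in the WT bars and hardly visible in the S127A bars, and the FOXF segment the other way round.

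Of the 30 genes, 18 reached the mean of 1 TPM over the 6 libraries that was needed for a test. Between S127A and WT, 10 of these rose, 4 fell and 4 did not pass (limma on log2(TPM + 1), Benjamini-Hochberg over 10348 genes, threshold 0.05). Of all genes tested, 90.0% passed, 40.2% higher and 49.8% lower, so a call by itself says little about a gene here. Changes of at least 2-fold were seen in 9 of the 18, 6 higher and 3 lower, beside 35.4% of all genes tested, 15.5% higher and 19.9% lower. FOXQ1, FOXF1 and FOXD1, among others, passed the filter through the S127A libraries and FOXR2 through the WT libraries, so those had to differ. WT and S127A libraries did not overlap for 14 of the 18, beside 90.2% of all genes tested. The median log2 difference of the 18 was 0.26 and that of all genes tested −0.12. At a mean of 1 TPM or more were 13 forkhead genes in WT and 18 in S127A, 12 of them in both groups.

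**Figure D2:**
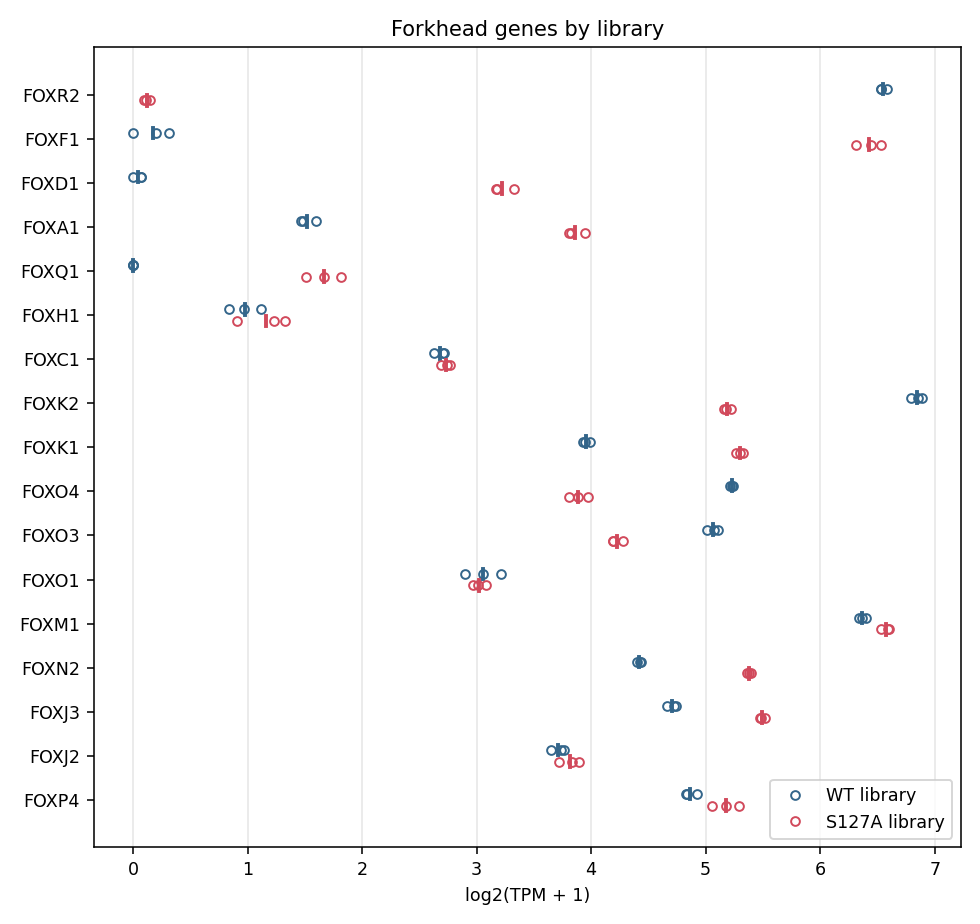
Of the 18 forkhead genes tested, 17 are drawn, with log2(TPM + 1) on the x axis, an open circle for each library and a vertical bar for each group mean. WT and S127A circles stand clear of each other in 13 rows and overlap for FOXH1, FOXC1, FOXO1 and FOXJ2.

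FOXR2, an X-linked factor that normal tissues other than the germ line rarely express and some tumours activate, was lost from the S127A libraries. It stood at 91.6, 91.3 and 94.6 TPM in WT and at 0.08, 0.07 and 0.11 TPM in S127A. Every WT library was far above every S127A library, and S127A kept 0.0937% of the WT mean. The log2 change was −6.43 (SE 0.0556, limma adjusted p = 1.2e-14), rank 43 among the falls of all tested genes. Its relative FOXR1 stayed at 0.34 TPM or less in all 6 libraries. FOXR2 (ENSMUSG00000071665.10, chromosome X, 153118786 to 153132861, plus strand, mm10) lies 7.12 kb from RRAGB, a Rag GTPase gene of the mTORC1 pathway, and 81.2 kb from MAGEH1. RRAGB stood at 1.96, 2.53 and 3.07 TPM in WT and at 0.05, 0 and 0 TPM in the S127A libraries, a log2 change of −1.78 (limma adjusted p = 4.45e-08). MAGEH1 stood at 5.09, 3.67 and 4.5 TPM in WT and was listed at 0 in the 3 S127A libraries. Both of the nearest listed protein-coding genes were thus lower in S127A, as FOXR2 was and as were 49.8% of all genes tested. RRAGB and MAGEH1, like FOXR2, passed the filter through the WT libraries, so their direction was fixed.

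The promoter windows of 4 genes with large differences are given for comparison, since their levels moved in opposite directions. Each runs 5′ to 3′ on the gene's strand from 250 bases before to 50 after the RefSeq start (GRCm38.p6, the assembly of mm10), with capitals for the motifs found: FOXR2 on the plus strand at chrX:153118538-153118837, FOXD1 on the plus strand at chr13:98353995-98354294, FOXA1 on the minus strand at chr12:57546062-57546361 and FOXK2 on the plus strand at chr11:121259737-121260036.
Foxr2: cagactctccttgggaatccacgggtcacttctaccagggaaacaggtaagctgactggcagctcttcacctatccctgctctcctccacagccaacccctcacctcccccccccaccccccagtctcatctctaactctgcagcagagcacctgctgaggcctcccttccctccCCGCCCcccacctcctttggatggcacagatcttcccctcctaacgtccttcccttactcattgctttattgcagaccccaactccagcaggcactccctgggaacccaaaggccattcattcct
Foxd1: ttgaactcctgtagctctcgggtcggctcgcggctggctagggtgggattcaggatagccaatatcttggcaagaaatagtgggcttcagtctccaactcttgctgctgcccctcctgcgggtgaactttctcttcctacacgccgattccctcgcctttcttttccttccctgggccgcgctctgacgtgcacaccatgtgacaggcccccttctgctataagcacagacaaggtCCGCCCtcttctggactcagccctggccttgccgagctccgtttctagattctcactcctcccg
Foxa1: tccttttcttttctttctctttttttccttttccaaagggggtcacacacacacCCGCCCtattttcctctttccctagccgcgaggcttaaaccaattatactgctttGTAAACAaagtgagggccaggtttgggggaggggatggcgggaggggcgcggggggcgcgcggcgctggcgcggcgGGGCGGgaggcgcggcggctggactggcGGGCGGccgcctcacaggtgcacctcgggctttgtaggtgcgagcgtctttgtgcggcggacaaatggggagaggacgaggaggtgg
Foxk2: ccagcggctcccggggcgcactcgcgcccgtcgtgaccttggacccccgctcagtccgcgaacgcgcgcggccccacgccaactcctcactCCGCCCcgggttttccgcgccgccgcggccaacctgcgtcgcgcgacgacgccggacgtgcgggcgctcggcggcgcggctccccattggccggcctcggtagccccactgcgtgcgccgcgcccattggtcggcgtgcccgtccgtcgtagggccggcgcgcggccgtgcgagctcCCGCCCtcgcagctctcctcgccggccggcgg

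The capitals mark a GC box (GGGCGG, bound by SP and KLF factors) on either strand and, in the FOXA1 window, 1 forkhead motif (TGTTTAC) on the reverse strand. RefSeq windows were found for 18 of the 30 genes, 19 windows in all, and FOXF1, FOXK1 and FOXM1 are among those without one. A GC box was in 15 of the 19, beside 35.7% of all 32850 RefSeq windows, and the forkhead motif in 1, that of FOXA1, beside 3.65%. All windows together cover 27024 genes, more than the 14915 symbols measured. The E-box CACGTG, the AP-1 site TGANTCA and the CRE TGACGTCA were in none of the 19, beside 7.15%, 7.81% and 1.79% of all windows. The kappaB consensus, the site of the NF-kB factors that TNFα activates, was in 5, those of FOXD2, FOXN4, FOXJ2, FOXA3 and FOXC1, beside 4.51%. Of these genes FOXJ2 and FOXC1 did not pass, and FOXD2, FOXN4 and FOXA3 lay under the mean needed for a test. A kappaB match can overlap a GC box, as in the FOXC1 window. The median G and C content was 65.3% over the 19 windows and 52.7% over all windows, and 16 of the 19 were above the latter. The windows below it were 2 of FOXP3, at 40.7% and 47.7%, and that of FOXD4, at 49.0%. The windows printed here held 79.3% in FOXK2, 62.3% in FOXA1, 58.7% in FOXR2 and 57.7% in FOXD1. FOXR2 and FOXD1, which moved in opposite directions, each had 1 GC box and no other motif searched.

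Developmental forkhead genes that were near 0 in WT were expressed in S127A. FOXF1, a factor of lateral mesoderm and of lung and gut mesenchyme, stood at 0.24, 0 and 0.15 TPM in WT and at 78.5, 91.5 and 86.2 TPM in S127A. The log2 change was 6.26 (SE 0.0884, limma adjusted p = 2.06e-13), rank 49 among the rises of all tested genes, and FOXF1 was second only to FOXM1 among the forkhead genes of S127A. FOXD1, which marks stromal progenitors of the kidney, was at 0.05, 0 and 0.05 TPM in WT and at 9.01, 7.97 and 8.05 TPM in the S127A libraries, a log2 change of 3.18 (SE 0.0763, limma adjusted p = 1.19e-11). For both genes all S127A libraries were above all WT libraries. In the same libraries 5 of the 6 tested fibroblast markers were higher (COL1A1, COL1A2, PDGFRA, PDGFRB and FAP), beside 40.2% of all genes tested. POSTN was lower, and SOX10 was at 0.603 TPM. COL1A1, PDGFRA and FAP passed the filter through the S127A libraries and POSTN through the WT libraries, so their directions were fixed. The part of what these markers show in the FOXF1 and FOXD1 levels was not tested.

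FOXA1, the endodermal and epithelial pioneer factor, was the developmental member that rose from a level above 1 TPM. It stood at 1.80, 1.76 and 2.02 TPM in WT and at 13.0, 13.2 and 14.4 TPM in S127A, a 7.27-fold ratio of the means. The log2 change was 2.34 (SE 0.0699, limma adjusted p = 7.05e-11). Epithelial markers other than KRT18 stayed under 1 TPM in both groups, with CDH1 at 0.127 ± 0.0416 and 0.06 ± 0.0656 TPM. FOXQ1, a factor of stomach epithelium and hair, was listed at 0 in every WT library and reached 1.85, 2.17 and 2.52 TPM in S127A (limma adjusted p = 1.47e-08). An annotated gene on the opposite strand, A530084C06Rik, covers 3200 bases of FOXQ1, and the strand setting of the libraries is not given in the sources used here, so the source of these reads is uncertain. FOXC1, a factor of mesoderm and neural crest derivatives, overlapped between groups at 5.51, 5.20 and 5.58 TPM in WT and 5.81, 5.46 and 5.70 TPM in the S127A libraries, a log2 difference of 0.05 (SE 0.063, limma adjusted p = 0.461). Among its 16 alternatives it passed after quantile normalization alone (log2 change 0.29), with limma adjusted p from 0.0013 to 0.756. FOXH1, a SMAD partner in Nodal signalling, ranged from 0.79 to 1.17 TPM over the WT and from 0.88 to 1.51 TPM over the S127A libraries and did not pass (adjusted p = 0.17). The gene passed after quantile normalization (limma adjusted p = 2.68e-04) and without S127A replicate 3 (0.0223), and other alternatives reached 0.486.

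Neighbouring forkhead genes were all higher in S127A on chromosome 8 but not on chromosome 13. On chromosome 8, FOXF1 (121084386 to 121088144) is followed within 28.0 kb by FOXC2 and a further 9.04 kb by FOXL1, all on the plus strand. An annotated gene on the same strand, Gm20388, spans these genes, and its part in their reads was not tested. FOXC2, a lymphatic and mesenchymal factor, was at 0.22, 0.09 and 0.27 TPM in WT and at 0.80, 0.66 and 0.62 TPM in S127A. FOXL1, a factor of gut mesenchyme, was at 0.05, 0.04 and 0.09 TPM in WT and at 1.17, 1.16 and 1.34 TPM in S127A. Both were higher in all S127A libraries, as FOXF1 was, but at levels far below it, and both lay under the mean needed for a test. MTHFSD, the gene between FOXF1 and FOXC2, rose from 30.8 ± 1.78 to 42.0 ± 1.29 TPM. IRF8, an interferon regulatory factor 328 kb before FOXF1, rose from 0.267 ± 0.0569 to 4.5 ± 0.305 TPM. On chromosome 13, FOXQ1, FOXF2 and FOXC1 lie in this order with gaps of 64.8 and 175 kb. FOXF2 was listed at 0 in all 6 libraries between FOXQ1, which rose, and FOXC1, which did not pass. GMDS, 7.1 kb beyond FOXC1, fell from 33.2 ± 3.58 to 26.2 ± 1.31 TPM.

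**Figure D3:**
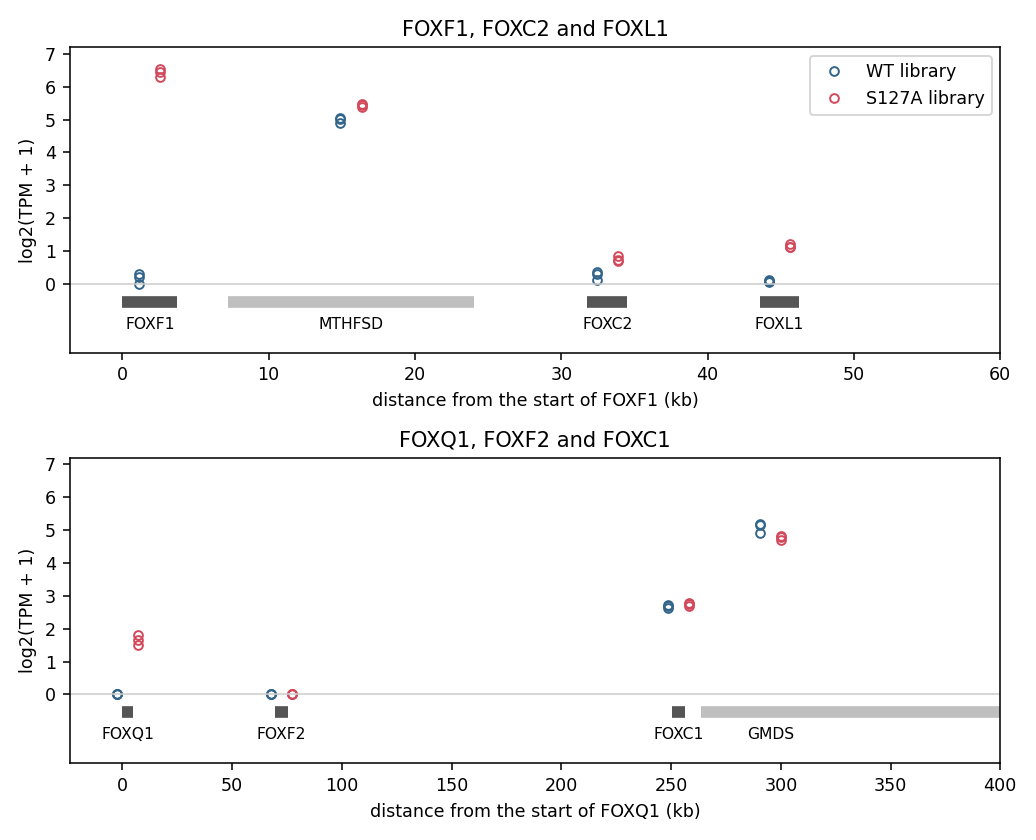
Forkhead genes (dark bars) and neighbouring genes (grey bars) in 2 clusters, with distance from the start of the first gene in kb on the x axis and log2(TPM + 1) on the y axis. Circles are libraries, WT and S127A set side by side at each gene, and the GMDS bar runs on past the edge. In the upper panel FOXF1 is above 6 in S127A while FOXC2 and FOXL1 stay near 1, and in the lower panel FOXF2 is at 0 throughout.

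FOXD1 has no other forkhead gene of the table close by. The nearest listed gene after FOXD1, TMEM171 at 327 kb, stood at 0.32, 0.21 and 0.11 TPM in WT and at 85.6, 85.4 and 81.6 TPM in the S127A libraries, a log2 change of 6.14 (SE 0.0717, limma adjusted p = 5.44e-14). TMEM171, like FOXD1, passed the filter through the S127A libraries, so its direction was fixed. BTF3, 37.2 kb before FOXD1, is a transcription and nascent chain factor and rose from 777 ± 18.2 to 1099 ± 7.32 TPM.

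The remaining low members lay under 1 TPM in both groups. FOXD2 stood at 0.72, 0.76 and 0.99 TPM in WT and at 0.05, 0 and 0.09 TPM in S127A. FOXJ1, the master factor of motile cilia, stood at 0.46, 0.50 and 0.43 TPM in WT and at 0, 0 and 0.05 TPM in S127A. For both, all WT libraries were above all S127A libraries. FOXN4, FOXP3, the factor of regulatory T cells, FOXR1, FOXN1, whose loss gives the nude mouse, FOXS1, FOXA3 and FOXD4 ranged from 0 to 0.38 TPM, with groups that overlapped. FOXF2 was at 0 throughout. Without the filter on low values, FOXL1 (log2 change 1.07, adjusted p = 3.46e-07), FOXJ1 (−0.53, adjusted p = 6.42e-06), FOXD2 (−0.80, adjusted p = 1.14e-05) and FOXC2 (0.51, adjusted p = 2.7e-04) passed in limma. The reads behind these low values are unknown, since TPM does not give the depth.

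**Figure D4:**
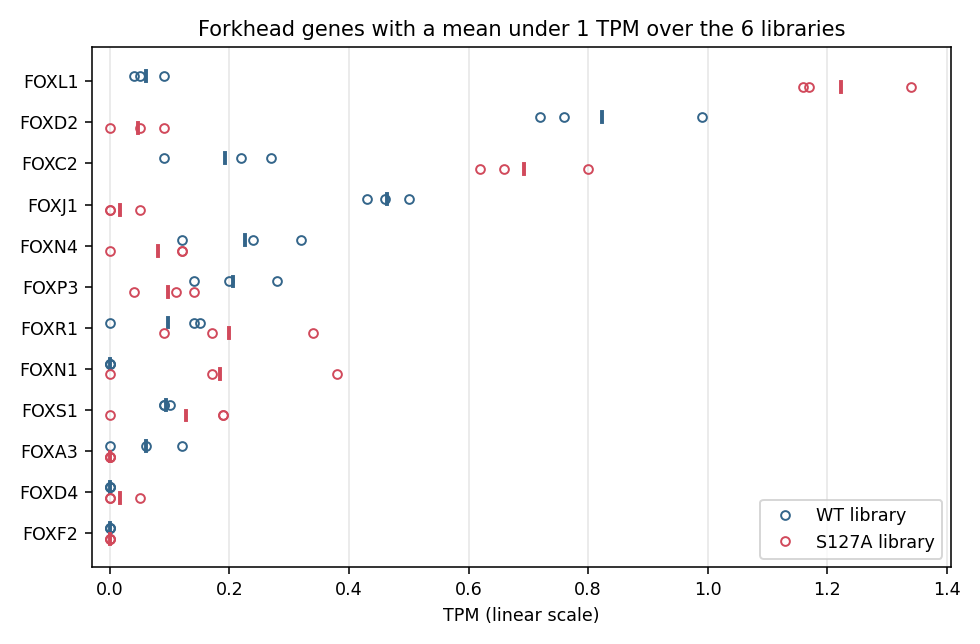
The 12 forkhead genes under a mean of 1 TPM over the 6 libraries, with TPM on a linear x axis, an open circle per library and a vertical bar for each group mean. FOXL1 and FOXC2 are higher in each S127A library and FOXD2 and FOXJ1 in each WT library, and the other 8 overlap.

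The forkhead genes also differ in exon number. By the longest coding transcript in GENCODE, 9 of the 30 genes have 1 exon, and 1 of these, FOXC1, reached 1 TPM in WT. Of the 21 genes with more exons 12 did. In S127A 4 further genes of 1 exon were at 1 TPM or more, FOXD1, FOXL1 and FOXQ1 among them. These counts are a description and were not tested.

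The paralogues FOXK1 and FOXK2 changed in opposite directions and ended at nearly the same level. FOXK2 stood at 114, 117 and 110.2 TPM in WT, the highest forkhead gene there, and at 35.3, 36.4 and 34.8 TPM in S127A, a log2 change of −1.66 (SE 0.0375, limma adjusted p = 7.34e-12). FOXK1 stood at 14.2, 14.9 and 14.4 TPM in WT and at 38.4, 37.4 and 39.2 TPM in S127A, a rise of 1.34 on the log2 scale (SE 0.0451, adjusted p = 1.97e-10). Neither gene had an S127A library within its WT range. The ratio of FOXK2 to FOXK1 went from 8.05, 7.88 and 7.65 in the WT libraries to 0.919, 0.972 and 0.889 in the S127A libraries, so that FOXK1 was the higher of the pair in each S127A library. NARF, which ends 4.13 kb before FOXK2, fell from 29.5 ± 1.26 to 5.73 ± 0.3 TPM, and WDR45B after it from 68.9 ± 3.51 to 50.3 ± 2.31 TPM. AP5Z1, which starts 1.93 kb after FOXK1, rose from 13.7 ± 0.764 to 20.6 ± 1.58 TPM.

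Of 16 partners of the FOXK factors, which include the BAP1 deubiquitinase complex and the SIN3 corepressor, 12 fell, 2 rose and 2 did not pass, with a median log2 difference of −0.45 (all genes tested, 90.0% called, 49.8% lower, median −0.12). The histone deacetylase HDAC2 fell from 190 ± 6.26 to 76.1 ± 4.26 TPM, the Dishevelled protein DVL3, which FOXK factors carry to the nucleus, from 38.4 ± 1.34 to 17.8 ± 0.891 TPM and ASXL2 from 27.0 ± 0.131 to 14.3 ± 0.49 TPM. DVL1 (33.0 ± 0.711 to 68.9 ± 3.07 TPM) and the O-GlcNAc transferase OGT (67.5 ± 2.14 to 111.8 ± 4.57 TPM) rose, and DVL2 and SIN3B did not pass. Of 14 genes of glycolysis and pyruvate use, 13 fell and 1 rose, with a median of −1.61, beside 49.8% lower and a median of −0.12 over all genes tested. LDHB, a lactate dehydrogenase subunit, fell from 242.8 ± 1.07 to 0.273 ± 0.127 TPM, and the phosphofructokinase PFKL from 229 ± 2.47 to 34.1 ± 1.5 TPM. PFKP, the platelet isoform of that enzyme, fell from 165 ± 4.44 to 9.39 ± 0.495 TPM. PDP1, the phosphatase that activates pyruvate dehydrogenase, rose from 4.04 ± 0.14 to 15.4 ± 0.587 TPM. The melanocyte markers were low in the same libraries, and their part in these differences was not tested.

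FOXO4 and FOXO3 fell and FOXO1 did not pass. FOXO4 stood at 36.2, 36.6 and 36.8 TPM in WT and at 14.7, 13.7 and 13.0 TPM in the S127A libraries, a log2 change of −1.34 (SE 0.0524, limma adjusted p = 6.87e-10). FOXO3 stood at 33.5, 31.3 and 32.7 TPM in WT and at 17.3, 17.3 and 18.5 TPM in the S127A libraries, a log2 change of −0.84 (SE 0.0489, limma adjusted p = 2.16e-08). In both genes all WT libraries were above all S127A libraries. FOXO1 stood at 8.30, 6.45 and 7.32 TPM in WT and at 6.82, 7.09 and 7.48 TPM in S127A, with groups that overlapped (log2 difference −0.03, SE 0.0837, adjusted p = 0.702). The sign for FOXO1 turned with each rescaling (0.05 with TMM factors, 0.14 with quantile normalization, 0.013 with a common total) and without WT replicate 1. Together the 3 genes went from 76.3 ± 1.86 to 38.6 ± 0.409 TPM, and the ratio of FOXO3 to FOXO1 from 4.45 ± 0.409 to 2.48 ± 0.0483.

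Of 30 kinases and other regulators upstream of FOXO proteins 29 were tested, of which 14 rose and 15 fell, with a median log2 difference of −0.22. This split lies near that of all genes tested (90.0% called, 40.2% higher and 49.8% lower, median −0.12). AKT1, which phosphorylates FOXO proteins for export from the nucleus, fell from 679 ± 13.7 to 204 ± 8.35 TPM, whereas AKT2 rose from 84.6 ± 2.76 to 96.6 ± 4.89 TPM. Among the related SGK kinases, SGK3 fell from 9.26 ± 0.593 to 0.0833 ± 0.0208 TPM and SGK1 rose from 8.31 ± 0.513 to 34.7 ± 1.74 TPM. The 14-3-3 protein YWHAG, of the family that holds phosphorylated FOXO in the cytoplasm, rose from 248 ± 2.33 to 645 ± 4.46 TPM. MDM2, a ubiquitin ligase, rose from 102.6 ± 2.51 to 233 ± 3.89 TPM. AKT2 and SGK1 were named after their values were seen.

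Of 35 FOXO target genes 32 were listed and 28 tested, of which 14 rose, 13 fell and 1, BBC3, did not pass, with a median log2 difference of 0.15. The share called, 96.4%, lay near the 90.0% of all genes tested, whose median was −0.12. TRIM63, a muscle ubiquitin ligase, fell from 60.8 ± 1.45 to 0.187 ± 0.0451 TPM and the cyclin CCND2, a gene that FOXO represses, from 519.7 ± 1.02 to 140.3 ± 2.95 TPM. SESN3, a stress protein that restrains mTORC1, fell from 24.4 ± 0.71 to 0.02 ± 0.0346 TPM. TXNIP, the thioredoxin-binding protein that limits glucose uptake, rose from 78.7 ± 2.59 to 578 ± 5.31 TPM. For targets chosen once their values had been seen, the death gene BCL2L11 rose from 4.72 ± 0.41 to 47.2 ± 1.55 TPM, GADD45A from 54.3 ± 2.87 to 293 ± 7.51 TPM and the insulin receptor substrate IRS2 from 4.79 ± 0.367 to 28.1 ± 0.705 TPM, whereas the mitophagy receptor BNIP3 fell from 167 ± 24.2 to 15.9 ± 0.653 TPM.

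FOXM1 rose slightly and was the highest forkhead gene in S127A. It stood at 79.8, 81.4 and 83.7 TPM in WT and at 91.6, 96.3 and 95.6 TPM in S127A. The groups did not overlap, and the log2 change was 0.21 (SE 0.0352, limma adjusted p = 1.91e-04), a 1.16-fold ratio of the means. Of 34 genes of G2 and mitosis that FOXM1 is known to drive, 21 fell, 6 rose and 7 did not pass, with a median of −0.29, beside −0.12 over all genes tested. The share called, 79.4%, was below the 90.0% of all genes tested, of which 49.8% were lower. The mitotic kinase PLK1 fell from 128 ± 5.3 to 46.4 ± 0.682 TPM, the cyclins CCNB2 from 132 ± 7.3 to 51.3 ± 0.609 TPM and CCNA2 from 131 ± 2.9 to 60.7 ± 1.75 TPM, and the spindle checkpoint kinase BUB1B from 82.1 ± 2.98 to 36.3 ± 0.817 TPM. The 6 that rose, UBE2C, KIF20A, CENPE, TTK, TPX2 and CENPF, changed by 0.13 to 0.24 on the log2 scale, and none of them reached 2-fold, as 7 of those that fell did. With TMM factors, quantile normalization or a common total, 18 fell and 6 rose.

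Of the cell cycle kinases, cyclins and MuvB partners upstream of FOXM1, 18 were tested, 8 higher and 10 lower, near the split of all genes tested (40.2% higher and 49.8% lower). The D cyclin CCND3 fell from 503 ± 12.5 to 77.3 ± 4.23 TPM, CDK2 from 240.2 ± 11.9 to 57.3 ± 0.589 TPM and CCNE1 from 68.6 ± 0.83 to 24.5 ± 0.768 TPM, while CDK6 rose from 14.9 ± 0.584 to 74.9 ± 2.56 TPM. CDK4 and CDK6 with D cyclins phosphorylate FOXM1 and stabilise it. The median log2 difference of this list was −0.16.

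Of the other widely expressed members, FOXN2 and FOXJ3 rose and FOXJ2 did not pass. FOXN2 stood at 20.2, 20.6 and 20.5 TPM in WT and at 41.1, 40.1 and 40.5 TPM in S127A, a 1.98-fold ratio of the means (log2 change 0.96, SE 0.0404, limma adjusted p = 1.4e-09). FOXJ3, which acts in muscle and in spermatogenesis, stood at 25.4, 25.7 and 24.4 TPM in WT and at 44.9, 43.6 and 43.6 TPM in the S127A libraries, a log2 change of 0.78 (SE 0.0411, limma adjusted p = 8.87e-09). For both all S127A libraries were above all WT libraries. FOXJ2 stood at 12.6, 12.3 and 11.5 TPM in WT and at 12.2, 13.2 and 13.9 TPM in S127A, overlapped and did not pass (log2 difference 0.10, SE 0.0633, adjusted p = 0.161). The limma adjusted p for FOXJ2 ranged from 0.0102 to 0.432 over the alternatives and was under the threshold in 4 of them, at 0.0163 under TMM scaling, 0.0102 after quantile normalization, 0.0443 for libraries brought to a common total and 0.04998 without S127A replicate 1.

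FOXP4, a repressor of lung and gut epithelium that pairs with other FOXP proteins, rose within a wide spread. It stood at 27.5, 27.4 and 29.3 TPM in WT and at 32.3, 38.3 and 35.1 TPM in the S127A libraries, a log2 change of 0.31 (SE 0.061, limma adjusted p = 5.35e-04). The groups did not overlap. Of 14 corepressor, NuRD and NFAT partners of FOXP proteins, 13 were tested, 4 rose, 8 fell and 1, MTA3, did not pass, with a median log2 difference of −0.17. The share called, 92.3%, and the median lay near those of all genes tested, 90.0% and −0.12. NFATC2, the partner of FOXP3 in T cells, fell from 20.6 ± 0.33 to 0.0833 ± 0.0651 TPM and NFATC1 rose from 1.96 ± 0.155 to 14.0 ± 0.583 TPM. The NuRD remodeller CHD4 fell from 336 ± 3.91 to 110.8 ± 1.02 TPM and its partner MBD3 from 214 ± 8.01 to 85.8 ± 1.99 TPM. GATAD2B, MTA2 and RBBP7 were the other 3 that rose, by 0.18, 0.33 and 0.45 on the log2 scale.

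Ciliary genes, which FOXJ1 and the RFX factors control in ciliated cells, were mostly lower. The list counted here also holds the factors RFX1, RFX2, RFX3 and RFX7. Of 26 genes 22 were listed and 12 tested, of which 10 fell, 1 rose and 1, RFX1, did not pass, with a median log2 difference of −1.14. Of all genes tested 49.8% were lower. The dynein chain DNAI1 fell from 64.5 ± 1.37 to 0.0967 ± 0.0808 TPM and CCDC40 from 16.01 ± 1.96 to 0.0533 ± 0.0611 TPM. RFX7 fell from 48.1 ± 0.662 to 12.9 ± 0.464 TPM and RFX3 from 8.59 ± 0.226 to 1.82 ± 0.207 TPM. TEKT2 rose from 0.897 ± 0.368 to 2.11 ± 0.48 TPM. DNAI1 and CCDC40, among others, passed the filter through the WT libraries and TEKT2 through the S127A libraries, so their directions were fixed. Without the filter 11 of 21 genes of this list fell and 1 rose, with a median of −0.29. Of all genes 5717 of 14385 then fell. FOXJ1 itself stayed at 0.5 TPM or less, and the axonemal gene TEKT1 was listed at 0 in all 6 libraries, while SPAG6 and RSPH4A were at 0.06 TPM or less. These 3 genes were named after their values were seen.

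**Figure D5:**
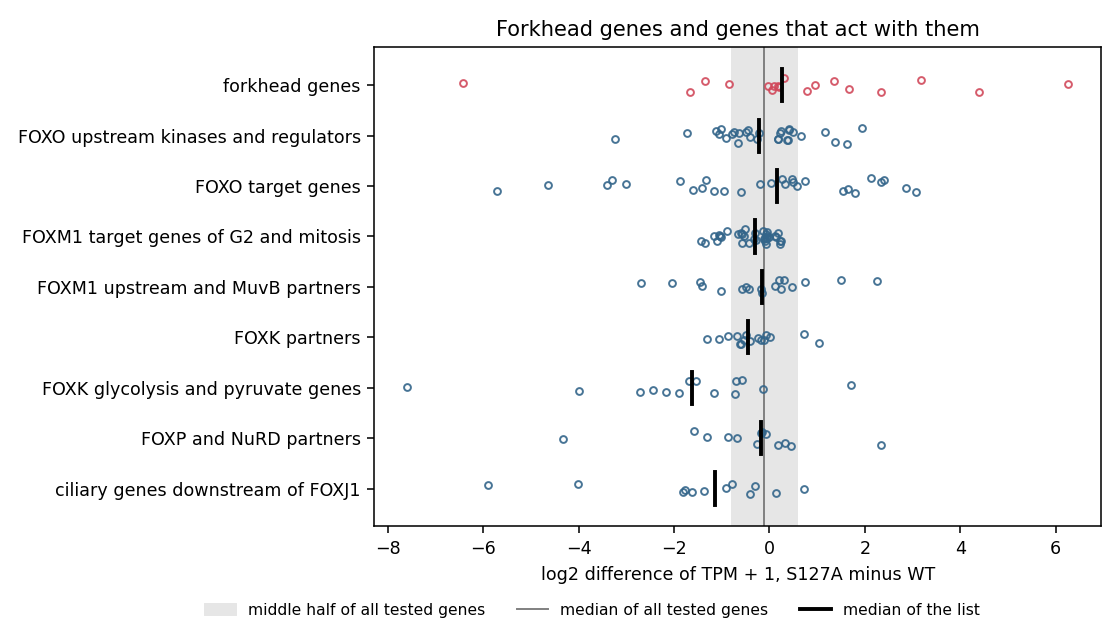
Log2 difference of TPM + 1, S127A minus WT, for each tested forkhead gene (red circles) and for each tested gene of 8 lists of regulators, partners and targets (blue circles), with list medians as black bars. The grey band holds the middle 50% of all tested genes around their median of −0.12. Forkhead genes spread from −6.43 to 6.26, and the glycolytic and ciliary lists have the lowest medians, −1.61 and −1.14.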

How the data were processed

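RNA-seq expression was read in 6 libraries, 3 WT and 3 ZBTB5-S127A, grouped by the labels. The authors deposited 1 table of TPM values per gene and library, as the file headers name them, and the submitters' processing notes name the genome build mm10. Which aligner, quantifier and strand setting was used is not given in the sources used here. TPM keeps no read depth, so the depth and the counting error are unknown, and the number of libraries limits the precision.

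Genes with a mean of at least 1 TPM were tested on log2(TPM + 1) with limma 3.58.1 (R 4.3.3, empirical Bayes with a trend), with Benjamini-Hochberg adjustment over 10348 genes and a threshold of 0.05. This scale understates the change of low genes. A gene under 1 TPM in either group passed the filter through the other group, so its direction was fixed. Among the list genes named above this held for LDHB, SESN3, TRIM63, SGK3 and NFATC2, among others. The fit was checked only on simulated data in which few genes changed, whereas 90.0% of the genes tested passed here. False calls under so wide a difference were not checked. Tables were made with pandas 2.3.3 and numpy 2.4.6. Alternatives changed the pseudocount (0.1 or 5), the filter, the scaling (TMM factors with trims of 30% and 5%, quantile normalization or a common total), the variance model and the pairing, or left out 1 library.

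Coordinates, exons and neighbours came from GENCODE M21 (mm10). Opposite-strand genes overlap FOXF1, FOXF2, FOXJ2, FOXJ3, FOXO1, FOXP3, FOXP4 and FOXQ1. The overlap is 98 bases in FOXF1 and in FOXF2. Reads from the shared bases cannot be told apart without the strand setting. Same-strand overlaps include Gm20388, which spans FOXF1, FOXC2 and FOXL1, and Tex52 and Gm44596, which overlap FOXM1 by 691 and 644 bases. Those forkhead genes named here that reached 1 TPM in either group were given with each library's values, except FOXH1, given by its range. In each other list up to 4 genes of smallest adjusted p were named, plus members of 5 or fewer that moved against the majority. Genes named only because they did not pass, and single markers and neighbours, were chosen after their values were seen. The forkhead genes and the lists were chosen with earlier results of these data known. Some genes that enter the counts and sums are not reported here by name.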

Additional observations from a re-analysis of the deposited data

How the results depend on the processing

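In every alternative in which it was tested, each of the 14 forkhead genes that passed kept its direction and passed. The summed forkhead level depended on the scaling. From 475.4 TPM in WT it moved to 460.05 (TMM), 459.66 (quantile normalization) and 466.61 (common total). From 479.8 TPM in S127A it moved to 496.01 (TMM) and 497.21 (quantile normalization), and it was 489.01 with a common total. The log2 difference of FOXO1 turned from −0.0346 to 0.0494 under TMM scaling, 0.137 under quantile normalization, 0.01345 for a common total and, over the libraries left out in turn, ranged from −0.1144 to 0.04555 (without WT replicate 1), with limma adjusted p from 0.1628 to 0.9479 over its alternatives. FOXJ2, FOXC1 and FOXH1 passed in 4, 1 and 2 alternatives. The cause was not tested. The scaling also set the median log2 difference of all tested genes, which was −0.12 for the deposited values, −0.02 under TMM scaling and −0.003392 after quantile normalization. With the replicate block 10 forkhead genes were higher and 4 lower, as without it. Deviations of each library from its group mean were correlated across genes between WT and S127A libraries. For same-numbered libraries these correlations were 0.117, 0.0174 and 0.0279, the first being the highest of all pairs. WT replicate 2 correlated best with S127A replicate 3 (0.0344) and WT replicate 3 with S127A replicate 2 (0.0544). The numbers were therefore not taken to pair the samples. FOXD1, FOXH1 and FOXQ1 have no value with a mean of at least 5 TPM where they lie below it, and FOXQ1 none where a left-out S127A library brings it under 1 TPM.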
